A study of Homo sapiens with 18 samples.

Results

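The PRP19 complex genes described here are 10 genes that code for core proteins of this spliceosomal complex and of the intron-binding proteins joined to it: *PRPF19*, *CDC5L*, *PLRG1*, *BCAS2*, *CRNKL1*, *SYF2*, *XAB2*, *ISY1*, *CWC15* and *CTNNBL1*. They were listed by name, as partners of the J-domain protein DNAJC17. They are 10 of the 57500 genes counted. RNA was sequenced from 18 libraries of 2 established lines, ES8 from a Ewing sarcoma and Rh30 from an alveolar rhabdomyosarcoma. All cells carried dCas9-KRAB, a repressor that an sgRNA leads to a gene (CRISPRi), and all were kept in puromycin for 72 hours after transduction. Each line gave 3 groups of 3 libraries: parental cells with a control sgRNA (sgCTL), parental cells with an sgRNA against the 5' end of *DNAJC17* (sgDNAJC17), and cells that stably express a 3xFLAG-tagged *DNAJC17* cDNA without its RNA recognition motif (ΔRRM) and received sgDNAJC17. The ΔRRM cDNA is driven by a constitutive promoter from a lentivirus, and the ΔRRM cells are a separate stable population. No ΔRRM library with sgCTL was analysed here, so the effect of the allele and that of the cell population cannot be told apart. Replicates carry the letters A, B and C, and the labels do not say whether these are separate cultures, so p-values measure only the spread between these libraries.

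The PRP19 complex joins the spliceosome as it is activated and stays through both steps of splicing. PRPF19 is a ubiquitin ligase that forms the scaffold of the complex with CDC5L, PLRG1 and BCAS2 (also called SPF27). CWC15 and the catenin-like protein CTNNBL1 are held by this core, CRNKL1, SYF2 and ISY1 sit close to the catalytic RNA, and XAB2 and ISY1 belong to the intron-binding complex around the helicase AQR. DNAJC17 was found among proteins of this machinery, and a related J protein of yeast, Cwc23, takes part in spliceosome disassembly.

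The target gene was checked first. Parental ES8 cells held *DNAJC17* at 11.2, 12.4 and 12.3 CPM (read counts relative to library size, scaled by edgeR's TMM method over all 18 libraries) with sgCTL, in the order of the letters, and at 1.56, 1.96 and 1.56 CPM with sgDNAJC17. In Rh30, the levels were 11.7, 11.9 and 10.8 CPM with sgCTL and 2.52, 2.20 and 2.72 CPM with sgDNAJC17. Every knockdown library lay below every control library of its line, and the log2 fold change was -2.84 for ES8 and -2.19 for Rh30. Of the exonic bases of *DNAJC17*, 26.1% are shared with 3 genes on the other strand. One of these, *ZFYVE19*, has its 5' end 392 bases from that of *DNAJC17* and fell with sgDNAJC17 too, by 1.15 on the log2 scale in ES8 (adjusted p = 9.31e-05) and by 0.81 in Rh30 (adjusted p = 7.79e-05, edgeR). Loss of *DNAJC17* and of *ZFYVE19* cannot be told apart in the comparisons of knockdown with sgCTL. In ΔRRM cells *ZFYVE19* was also lower than in sgCTL cells (-0.80 in ES8 and -1.32 in Rh30). Against the knockdown, *ZFYVE19* in ΔRRM cells differed by 0.35 in ES8 (adjusted p = 0.0743) and by -0.52 in Rh30 (adjusted p = 0.000376, edgeR). The ΔRRM libraries held 283 to 312 CPM in ES8 and 336 to 368 CPM in Rh30, from the transgene and the endogenous gene together. Library totals ran from 35342393 to 48245989 counts. All 6 marker genes listed for each line were at 1 CPM or more in that line, and 4 blood cell markers summed to at most 0.478 CPM in any library. With sgCTL, 1 of the 6 ES8 markers also reached 1 CPM in Rh30 (*CCND1*, mean 267 CPM). Of the 6 Rh30 markers, 2 did so in ES8 with sgCTL: *FGFR4* (92.4 CPM) and *MYCN* (13.1 CPM, against 5.88 CPM in Rh30). In ES8 ΔRRM cells 3 did so, with *MYOD1* at 1.08 CPM (30 to 81 counts, against 20 to 30 with sgCTL). *MYOG* and *CHRNA1* held up to 6 and 25 counts in an ES8 ΔRRM library and 0 in the other ES8 groups. In bulk RNA, a change in the number of cells of a kind and a change in RNA per cell cannot be told apart. Mitochondrial genes took 1.48 to 1.73% of counts in the ES8 knockdown libraries against 1.10 to 1.13% in their controls, and the 10 highest genes took 8.28 to 8.60% in Rh30 ΔRRM libraries against 6.97 to 7.22% in Rh30 controls. The part of these shares in the results was not tested. One library, ES8 sgDNAJC17 replicate A, often stood away from the other 2 of its group, and results that rest on it are given with and without it.

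After knockdown in ES8, 3 of the 10 PRP19 complex genes rose and none fell, at an adjusted p under 0.05 in edgeR's quasi-likelihood test (Benjamini-Hochberg over 17143 genes). Of all genes tested, 27.4% were called in this comparison, 13.6% upward and 13.8% downward. For calls in either direction, 3 of 10 is near the background, and all 3 were upward. The genes that rose were *SYF2*, *ISY1* and *PLRG1*, and all 3 changes were smaller than 2-fold. No PRP19 complex gene passed the 2-fold requirement in either knockdown, against 1.95% of genes tested in ES8 and 1.55% in Rh30.

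*SYF2*, a small protein near the catalytic centre (chr1:25222679-25232502, minus strand, in GRCh38 as are all positions here), had the largest change of the 10 in ES8. It was at 19.1, 18.4 and 21.4 CPM with sgCTL and at 27.3, 35.8 and 35.2 CPM with sgDNAJC17. Every knockdown library lay above every control library, and replicate A had the lowest of the 3 knockdown values. The log2 fold change was 0.71 ± 0.11 (SE, standard error, n = 3 against 3, adjusted p = 0.00174, edgeR), a rise of 1.64-fold. *ISY1* (chr3:129127415-129161293, minus strand), which acts at the first catalytic step, was at 13.6, 13.05 and 13.04 CPM with sgCTL and at 17.1, 18.7 and 22.1 CPM with sgDNAJC17. Its groups did not overlap, and its log2 fold change was 0.52 ± 0.10 (SE, adjusted p = 0.00476, edgeR). *PLRG1* (chr4:154535006-154550435, minus strand), a WD40 protein of the scaffold, was at 64.1, 62.2 and 60.1 CPM with sgCTL and at 71.6, 78.9 and 77.0 CPM with sgDNAJC17. Its groups did not overlap either, and its log2 fold change was 0.26 ± 0.06 (SE, adjusted p = 0.0124, edgeR). The call of *PLRG1* was lost without sgCTL replicate B (adjusted p = 0.0566), without sgCTL replicate C (adjusted p = 0.0819) or without sgDNAJC17 replicate B (adjusted p = 0.0548). *SYF2* and *ISY1* stayed called whichever library was left out.

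The other 7 genes were not called in ES8. *PRPF19* (chr11:60890730-60906588, minus strand), the ligase itself, had a log2 fold change of 0.09 with a 95% interval of -0.05 to 0.24. Its control libraries held 300.2 to 308 CPM and its knockdown libraries 313 to 362 CPM, without overlap, and replicate A was the highest. *CDC5L* (chr6:44387525-44450426, plus strand), a Myb-like scaffold protein, differed by 0.03, and *BCAS2* (chr1:114567557-114581639, minus strand) by -0.03. Among proteins around the core, the log2 fold change was 0.15 for *CRNKL1* (chr20:20034368-20056046, minus strand), 0.11 for *CWC15* (chr11:94962622-94973612, minus strand), 0.00 for *XAB2* (chr19:7619525-7629565, minus strand) and -0.03 for *CTNNBL1* (chr20:37693955-37872129, plus strand). In sgDNAJC17 replicate A, *CDC5L*, *BCAS2* and *CWC15* were below their control range and *XAB2* above it. Without this library, 7 of the 10 genes were called, and the share of all genes called in that fit was not counted. The log2 fold change of *CDC5L* was then 0.13 (adjusted p = 0.008), that of *CRNKL1* 0.25 (adjusted p = 7.06e-05), that of *CWC15* 0.22 (adjusted p = 0.00193) and that of *XAB2* -0.12 (adjusted p = 0.0122, edgeR). Across the 10 genes, 4 had groups that did not overlap, all higher after knockdown, where 44.8% of genes tested had groups apart in one direction or the other.

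**Figure D1:**
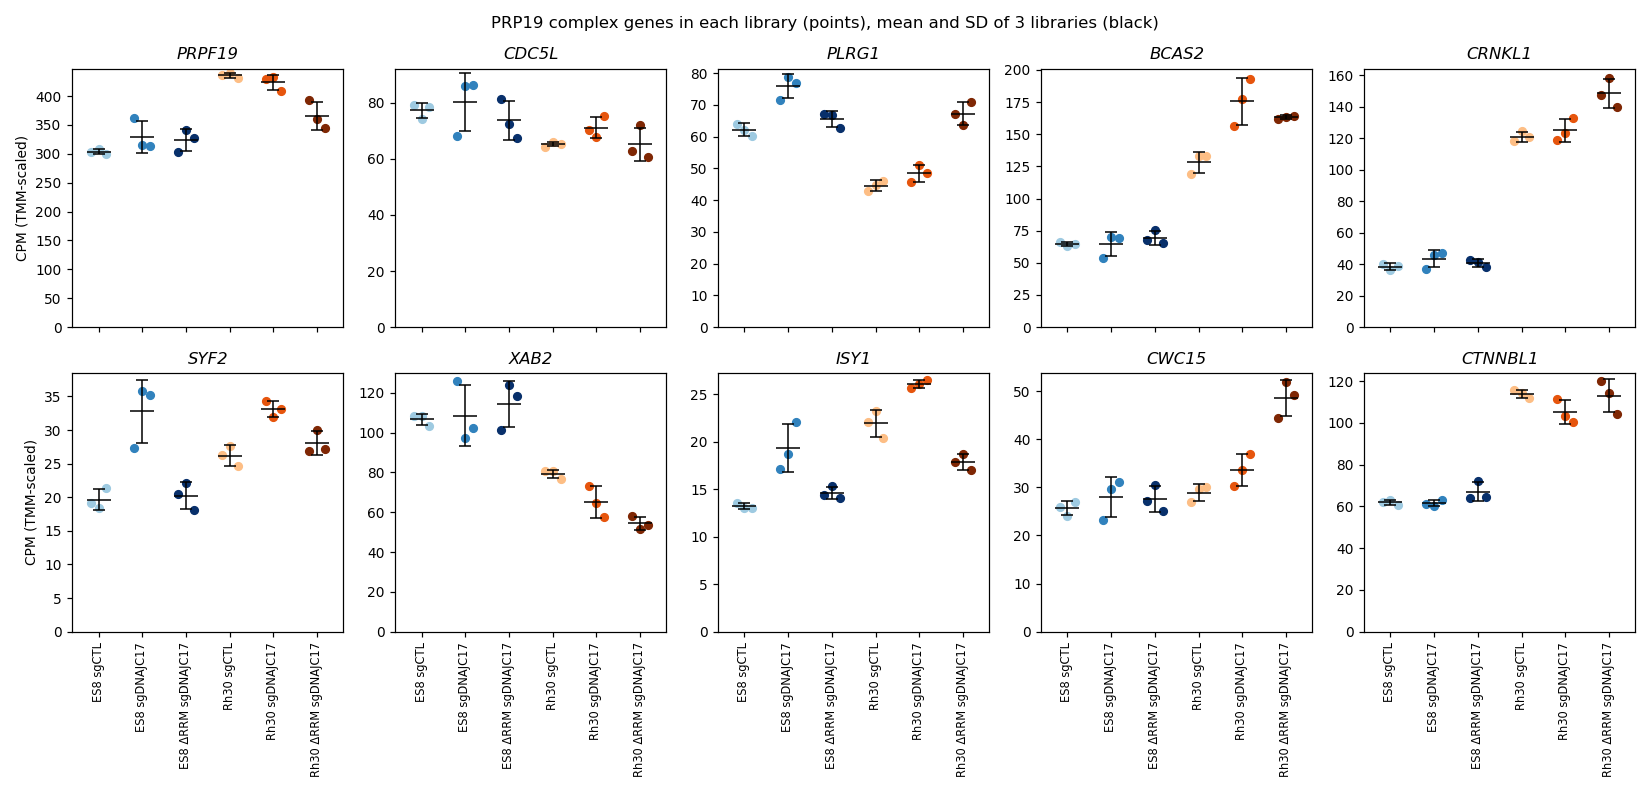
CPM of the 10 PRP19 complex genes in each of the 18 libraries (points, replicates A to C from left to right), with the mean and SD of 3 libraries in black and axes that start at 0. *SYF2* and *ISY1* lie higher with sgDNAJC17 than with sgCTL in both lines, and *CRNKL1* and *BCAS2* differ most between the lines.

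The promoters of the 3 genes that rose in ES8 were read from RefSeq (GRCh38.p14, 250 bases before to 50 after the start), where all 10 genes had an entry. The 6 letters CCGGAA, the core that ETS family factors recognise, were searched on both strands, overlaps allowed. The letters occurred in 17.3% of 35093 promoters and in 6 of the 10 here, and 3 or more copies occurred in 0.986% of promoters. *SYF2*, *ISY1* and *PLRG1* held 3 copies each, *PRPF19*, *XAB2* and *CWC15* held 1 each, and the other 4 none. In *PLRG1*, 2 of the copies overlap each other just after the start. In Rh30, *BCAS2* (no copy) and *CWC15* (1 copy) rose as well as *SYF2* and *ISY1*, and *PLRG1* was not called. The 35093 promoters were not limited to genes tested here. One stretch of 30 bases per promoter is shown, 5' to 3' on the strand of the gene, because these are the 3 genes that rose in ES8. Positions are counted from the RefSeq start, which for *ISY1* lies 230 bases downstream of the 5' end in the files, so that its stretch is inside the gene as the files place it. The RefSeq start of *PLRG1* lies 35 bases downstream and that of *SYF2* coincides. The stretches of *SYF2* and *ISY1* hold 2 copies each and that of *PLRG1* holds 1. Capitals mark the letters or their reverse complement TTCCGG.
SYF2 (chr1:25232569-25232598, minus strand, 96 to 67 bases before the start): cccaacTTCCGGagacctcCCGGAAggggc
ISY1 (chr3:129161120-129161149, minus strand, 86 to 57 bases before the start): gcacTTCCGGtactcccattcagTTCCGGt
PLRG1 (chr4:154550621-154550650, minus strand, 250 to 221 bases before the start): ttaagcTTCCGGggaatacagcacgaacaa
The motifs were chosen after the values had been seen, and a match is a description of these letters alone. Of 7 other motifs searched on both strands, GGGCGG occurred in 6 of the 10 promoters (44.9% of all), CCAAT in 6 (34.6%), TGACG in 7 (24.5%), TGCGCA in 3 (8.24%), TATAAA in 1 (11.5%) and AAGATGG in 0 (5.84%). These too were repeated in some promoters, with 3 copies of TGACG in *BCAS2* and in *XAB2* (3 or more in 1.40% of all promoters), 3 of CCAAT in *XAB2* (3.25%), and 4 of GGGCGG in *CTNNBL1* and 3 in *CWC15* (15.8%). The heat shock letters GAANNTTC occurred in *ISY1* alone of the 10, and in 6.77% of all promoters.

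In Rh30, 4 of the 10 genes rose after knockdown and 1 fell, where 32.3% of the 15391 genes tested were called, 16.1% upward and 16.2% downward. *BCAS2*, *SYF2*, *ISY1* and *CWC15* rose, and *XAB2* fell. With the replicate letter as a block, 8 genes were called, with *CDC5L* (0.14, adjusted p = 0.0137) and *PLRG1* (0.14, adjusted p = 0.0219) among those that rose and *CTNNBL1* (-0.10, adjusted p = 0.0343, edgeR) among those that fell. *PRPF19* and *CRNKL1* were called in neither fit. The 32.3% is from the fit without the block, and the share of all genes called with it was not counted. Groups were apart for 5 genes that were higher and 2 that were lower after knockdown, against 44.3% of all genes tested.

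*SYF2* was at 26.3, 27.6 and 24.7 CPM with sgCTL and at 34.4, 31.9 and 33.2 CPM with sgDNAJC17 in Rh30. All knockdown libraries lay above all controls, and the log2 fold change was 0.35 ± 0.07 (SE, adjusted p = 0.00206, edgeR), or 1.28-fold. *ISY1* was at 22.1, 23.2 and 20.4 CPM with sgCTL and at 25.7, 26.1 and 26.5 CPM with sgDNAJC17. It too did not overlap, with a log2 fold change of 0.27 ± 0.07 (SE, adjusted p = 0.0135, edgeR). Its call was lost without sgCTL replicate C (adjusted p = 0.0764), without sgDNAJC17 replicate B (adjusted p = 0.0517) and with scaling by library size alone (adjusted p = 0.0516). *SYF2* kept its call in both lines under every alternative to the test, scaling, filter, block, correction and libraries. *SYF2* and *ISY1* were the 2 genes of the 10 called upward in both lines without the block, and *PLRG1* joined them with it (adjusted p = 0.0302 in ES8 and 0.0219 in Rh30, edgeR). The share of all genes called upward in both lines was not counted, so these have no background here.

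*BCAS2*, the smallest scaffold subunit, had the largest uncorrected change in Rh30, and a correction for GC content and length took it from 0.47 to 0.15, below *ISY1* (0.32) and *SYF2* (0.26). It was at 119.0, 133 and 133 CPM with sgCTL and at 156, 177 and 193 CPM with sgDNAJC17, with no overlap. The log2 fold change was 0.47 ± 0.08 (SE, adjusted p = 0.000907, edgeR), or 1.38-fold. *CWC15*, the small core protein conserved to yeast, was at 26.9, 29.7 and 30.1 CPM with sgCTL and at 30.3, 33.5 and 36.9 CPM with sgDNAJC17. Its lowest knockdown library was just above its highest control, the log2 fold change was 0.23 ± 0.08 (SE, adjusted p = 0.0488, edgeR), and the call was lost with each of the 6 libraries but sgDNAJC17 replicate A left out. *XAB2*, which links splicing to transcription-coupled repair, was at 80.5, 80.5 and 76.9 CPM with sgCTL and at 73.3, 64.6 and 57.5 CPM with sgDNAJC17. All its knockdown libraries were lower than the controls, and they were also further apart from each other. It fell by 0.27 on the log2 scale (SE 0.08, adjusted p = 0.0148, edgeR), and the call was lost without sgCTL replicate B (adjusted p = 0.0525), sgDNAJC17 replicate B (adjusted p = 0.0649) or sgDNAJC17 replicate C (adjusted p = 0.0563). Among genes not called, the log2 fold change was -0.03 for *PRPF19*, 0.14 for *CDC5L*, 0.14 for *PLRG1*, 0.06 for *CRNKL1* and -0.10 for *CTNNBL1*.

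Markers of the lines and of other cell types moved with the groups, and their part in these results was not tested. Summed over 17 genes, the epithelial markers held 267 to 288 CPM in Rh30 sgCTL libraries, 289 to 313 CPM after knockdown and 338 to 369 CPM in ΔRRM cells, and 4, 7 and 7 of the 17 were at 1 CPM or more. *CLDN7* and *RAB25* had no count in the sgCTL libraries of Rh30. The epithelial markers were chosen with earlier results of these data known. In the Rh30 knockdown, 6 of the 11 epithelial markers tested rose and 1 fell, where 16.1% of all genes tested rose and 16.2% fell. The 1 that fell was *CLDN4*, from a mean of 98.1 CPM with sgCTL to 80.4 CPM with sgDNAJC17 (log2 fold change -0.27, adjusted p = 0.00578, edgeR). *KRT8* had a mean of 0.853 CPM with sgCTL and 9.52 CPM with sgDNAJC17, and *KRT18* had 0.252 and 3.18 CPM. The 6 Rh30 markers summed to 2980 to 3065 CPM with sgCTL, 2533 to 2753 CPM with sgDNAJC17 and 1962 to 2200 CPM in ΔRRM cells, and *FGFR4*, *MYCN* and *MYOG* fell in the knockdown. In ES8, the epithelial sum ran from 308 to 314 CPM with sgCTL and from 291 to 352 CPM with sgDNAJC17. Of 5 stromal markers, 4 fell in the ES8 knockdown, where 13.8% of all genes tested fell. The sum of the 5 ran from 441 to 459 CPM in controls and from 339 to 406 CPM after knockdown.

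**Figure D2:**
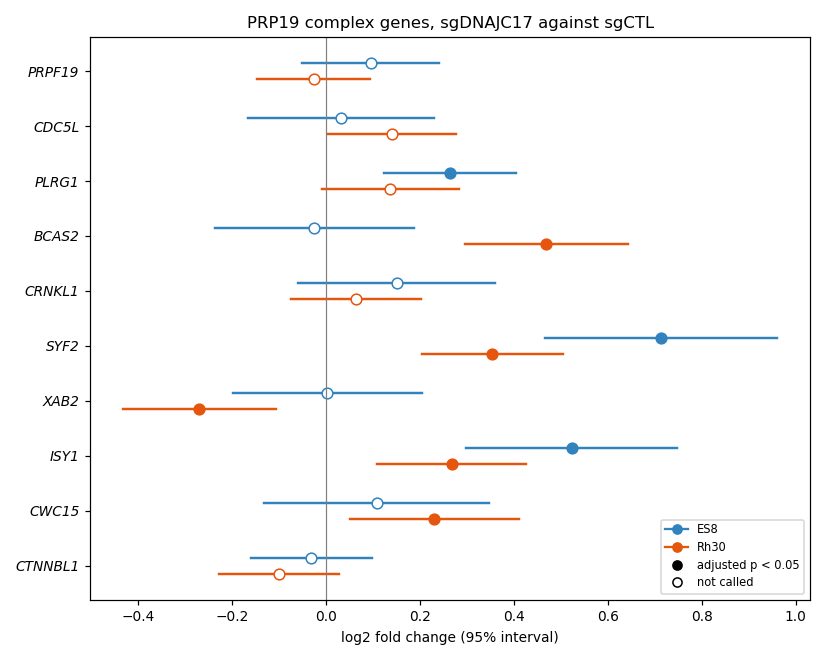
Log2 fold change of each PRP19 complex gene after knockdown of *DNAJC17* (sgDNAJC17 against sgCTL) in ES8 and Rh30, with 95% intervals from edgeR, and filled points for an adjusted p under 0.05. *SYF2* (0.71 and 0.35) and *ISY1* (0.52 and 0.27) are filled on the right in both lines, and *BCAS2* is filled in Rh30 (0.47) but not in ES8 (-0.03).

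The difference between the responses of the lines was tested as an interaction over the 12 parental libraries. It passed for *BCAS2* alone of the 10, where 9.78% of 18899 genes passed, 5.23% with a larger and 4.55% with a smaller value in Rh30. The response of *BCAS2* was larger in Rh30 than in ES8 by 0.52 ± 0.13 (log2, SE, adjusted p = 0.0131, edgeR), and without Rh30 sgCTL replicate A the adjusted p was 0.0915. Without ES8 sgDNAJC17 replicate A, the ES8 change of *BCAS2* was 0.086 (adjusted p = 0.111, edgeR). *SYF2* had a difference of -0.33 (95% interval -0.60 to -0.06, adjusted p = 0.108, edgeR), and without ES8 sgDNAJC17 replicate A this was -0.43 (adjusted p = 0.00638, edgeR). *DNAJC17* itself fell less in Rh30, by a difference of 0.68 (adjusted p = 0.0199, edgeR), and this call was lost without ES8 sgCTL replicate C, Rh30 sgCTL replicate A or Rh30 sgDNAJC17 replicate C (adjusted p = 0.0519 to 0.0642, edgeR). For *ISY1*, the difference was -0.23 (adjusted p = 0.275), and for *XAB2* it was -0.25 (adjusted p = 0.249, edgeR).

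Genes with much A and T, or with short transcripts, had higher fold changes than other genes in all 3 Rh30 comparisons. Between Rh30 knockdown and control, the median log2 fold change was 0.15 in the 10% of genes with the lowest GC content and -0.20 in the 10% with the highest. In ES8, these medians were -0.08 and -0.03. The medians of the shortest and longest 10% by exonic length were 0.13 and -0.15 in Rh30 and 0.12 and -0.15 in ES8. *BCAS2* had the lowest GC content of the 10 (38.4%) and the shortest exonic length (1299 bases), and *XAB2* had the highest GC content (61.3%). After a correction for GC content and length, *SYF2* (0.26, adjusted p = 0.0041) and *ISY1* (0.32, adjusted p = 0.00131) kept their calls in Rh30, and *BCAS2* kept its call at 0.15 (adjusted p = 0.0115, edgeR). *XAB2* (-0.10, adjusted p = 0.155) and *CWC15* (0.02, adjusted p = 0.805) lost theirs, and *CTNNBL1* gained one (-0.15, adjusted p = 0.0246, edgeR). In ES8, the corrected values of *SYF2* (0.68), *ISY1* (0.49) and *PLRG1* (0.34) stayed called, and *CDC5L* (0.13, adjusted p = 0.01) and *CRNKL1* (0.19, adjusted p = 0.00595, edgeR) were added. In the interaction, the corrected difference of *BCAS2* was 0.23 (adjusted p = 0.00647), and that of *SYF2* was -0.40 (adjusted p = 0.012, edgeR). Those of *PLRG1* (-0.29, adjusted p = 0.0183) and *CRNKL1* (-0.19, adjusted p = 0.0497, edgeR) were also called with the correction and not without it.

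**Figure D3:**
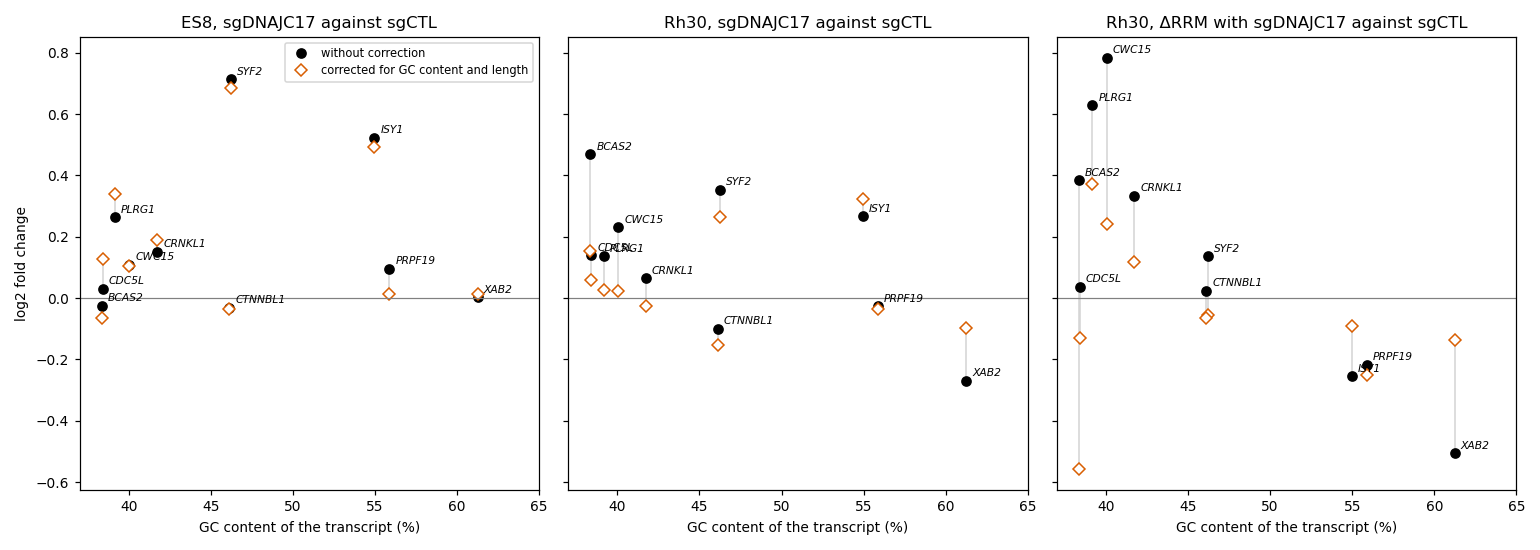
Log2 fold change of the 10 genes against the GC content of their longest transcript (percent), as measured (black points) and after correction for GC content and length (open diamonds), for knockdown in ES8, knockdown in Rh30 and ΔRRM in Rh30. In the Rh30 knockdown *SYF2* moves from 0.35 to 0.26 and *ISY1* from 0.27 to 0.32, and *BCAS2* in Rh30 ΔRRM cells moves from 0.38 to -0.56.

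In ES8 cells with the ΔRRM allele, none of the 10 genes was called against parental sgCTL cells, at 0.174% of 17199 genes called (0.093% upward and 0.0814% downward, and 0.0349% with a 2-fold change). The count was also 0 at an unadjusted p under 0.05 and 0 with DESeq2. The log2 fold changes lay between -0.07 (*CDC5L*) and 0.14 (*ISY1*). *SYF2* was at 20.5, 22.1 and 18.1 CPM in ΔRRM cells, which overlapped the controls and lay below all 3 knockdown libraries. *ISY1* was at 14.4, 15.3 and 14.1 CPM, just above all controls and below all knockdown libraries. *ISY1* and *CTNNBL1* were the 2 genes with groups apart, both higher in ΔRRM cells, against 20.8% of genes tested. Against the knockdown, with sgDNAJC17 in both groups, *SYF2* was the single gene called, at 14.7% of 17099 genes called (7.35% upward, 7.36% downward and 1.97% with a 2-fold change). It was lower in ΔRRM cells by a log2 difference of -0.67 ± 0.13 (SE, adjusted p = 0.00579, edgeR). For *ISY1*, the difference was -0.38 (adjusted p = 0.0508, edgeR), and it passed the threshold with DESeq2 (adjusted p = 0.0276). Without sgDNAJC17 replicate A, it was -0.46 (adjusted p = 0.0123, edgeR). *PLRG1* was at 67.3, 66.7 and 62.7 CPM in ΔRRM cells, below all knockdown libraries, with a difference of -0.19 (adjusted p = 0.166, edgeR). Groups were apart for these 3, all lower, and for *CTNNBL1*, higher, against 34.8% of genes tested. After the correction for GC content and length, all 3 were called lower than in the knockdown, *PLRG1* by a log2 difference of -0.23 (adjusted p = 0.0209, edgeR).

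In Rh30 cells with the ΔRRM allele, 7 of the 10 genes were called against parental sgCTL cells, where 68.8% of 15442 genes were called (33.8% upward, 35.0% downward, and 9.97% with a 2-fold change), so 7 of 10 is near the background. The same 7 had groups apart, where 71.5% of genes tested did. *CWC15* (0.78), *PLRG1* (0.63), *BCAS2* (0.38) and *CRNKL1* (0.33) were higher, and *XAB2* (-0.51), *ISY1* (-0.26) and *PRPF19* (-0.22) were lower. *CWC15* held 44.5, 51.9 and 49.2 CPM, above all libraries of the other Rh30 groups. *PLRG1* held 67.1, 63.6 and 70.8 CPM, again above all others in Rh30, where its knockdown libraries held 45.8 to 51.1 CPM. *CRNKL1*, a scaffold of helical repeats beside the catalytic centre, held 148, 158 and 140 CPM and did not overlap the other Rh30 groups.

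*XAB2* held 58.1, 51.4 and 53.8 CPM in Rh30 ΔRRM cells, below all controls. *PRPF19*, the gene with the highest level of the 10, held 392, 360 and 345 CPM there, below its control libraries (431 to 440.2 CPM) and its knockdown libraries (409 to 432 CPM). *ISY1* held 17.9, 18.7 and 17.0 CPM, below the controls as well as the knockdown. *SYF2* held 26.8, 30.1 and 27.2 CPM, which overlapped its controls and lay below its knockdown libraries. Its log2 fold change was 0.14 against the controls (adjusted p = 0.0999) and -0.23 against the knockdown (adjusted p = 0.0177, edgeR), and the second call was lost without ΔRRM replicate A (adjusted p = 0.107) or C (adjusted p = 0.0589).

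Against the Rh30 knockdown, 3 genes were higher in ΔRRM cells and 4 lower, where 60.0% of 15309 genes were called (29.4% upward, 30.5% downward and 7.79% with a 2-fold change). *CWC15* (0.54), *PLRG1* (0.48) and *CRNKL1* (0.26) were higher, and *ISY1* (-0.54), *XAB2* (-0.25), *SYF2* (-0.23) and *PRPF19* (-0.20) were lower. Groups were apart for 6 of these 7, all but *XAB2*, where 64.2% of genes tested had groups apart. The call of *PRPF19* was lost without sgDNAJC17 replicate B (adjusted p = 0.108) or ΔRRM replicate B (adjusted p = 0.06) or C (adjusted p = 0.101, edgeR). That of *XAB2* was lost without sgDNAJC17 replicate A (adjusted p = 0.0571) or ΔRRM replicate B (adjusted p = 0.0606, edgeR). The comparisons of ΔRRM cells with each parental group share the ΔRRM libraries, and those with sgCTL share the control libraries of the knockdown.

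The ΔRRM comparison of Rh30 had the steepest trend with GC content, with median log2 fold changes of 0.42 in the lowest 10% of genes and -0.47 in the highest, and with length, at 0.39 in the shortest 10% and -0.40 in the longest. After the correction, *CWC15* was at 0.24 (adjusted p = 0.000759), *PLRG1* at 0.37 (adjusted p = 4.27e-06), *CRNKL1* at 0.12 (adjusted p = 0.0263), *XAB2* at -0.14 (adjusted p = 0.0161) and *PRPF19* at -0.25 (adjusted p = 4.74e-05, edgeR), all still called. *ISY1* lost its call (-0.09, adjusted p = 0.264), *BCAS2* turned from 0.38 to -0.56 (adjusted p = 2.74e-11), and *CDC5L* gained a call (-0.13, adjusted p = 0.0234, edgeR). Scaling by library size alone moved the median of all genes by -0.23 there, and by -0.16 against the knockdown, and the directions given are relative to that median. Under that scaling, *CDC5L* (-0.20, adjusted p = 0.00922) and *CTNNBL1* (-0.21, adjusted p = 0.00246, edgeR) were called lower than in the controls, each with a value above 0 in the TMM-scaled fit, and *CRNKL1* was not called against the controls (0.10, adjusted p = 0.159) or the knockdown (0.10, adjusted p = 0.295, edgeR). Against the knockdown, the corrected values were -0.44 for *ISY1* and -0.33 for *SYF2*, both still called, 0.21 for *CWC15*, still called, and -0.06 for *XAB2*, no longer called (adjusted p = 0.378, edgeR). *BCAS2* moved from -0.10, not called, to -0.70 (adjusted p = 4.75e-11), and *CDC5L* from -0.12 to -0.19 (adjusted p = 0.00356, edgeR). With library size alone, *BCAS2* (-0.26) and *CDC5L* (-0.28) were also called lower than in the knockdown.

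Tested as an interaction, the difference between ΔRRM and sgCTL cells was not the same in both lines for 7 of the 10 genes, where 41.4% of 18854 genes passed, 19.9% with a larger and 21.5% with a smaller value in Rh30. *CWC15* (0.68), *PLRG1* (0.56), *BCAS2* (0.28) and *CRNKL1* (0.26) had larger values in Rh30, and *XAB2* (-0.60), *ISY1* (-0.39) and *PRPF19* (-0.30) smaller ones. The call of *CRNKL1* was lost with some single libraries left out (adjusted p up to 0.0851, edgeR). That of *BCAS2* was lost without ES8 ΔRRM replicate C (adjusted p = 0.0532) or Rh30 sgCTL replicate A (adjusted p = 0.0614, edgeR). Both were lost with all 18 libraries in 1 fit (adjusted p = 0.149 and 0.146, edgeR) and with library size alone. After the correction for GC content and length, *PLRG1*, *XAB2* and *PRPF19* kept direction and call, *BCAS2* turned to -0.60 (adjusted p = 1.48e-07, edgeR), and *CWC15*, *CRNKL1* and *ISY1* were no longer called.

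**Figure D4:**
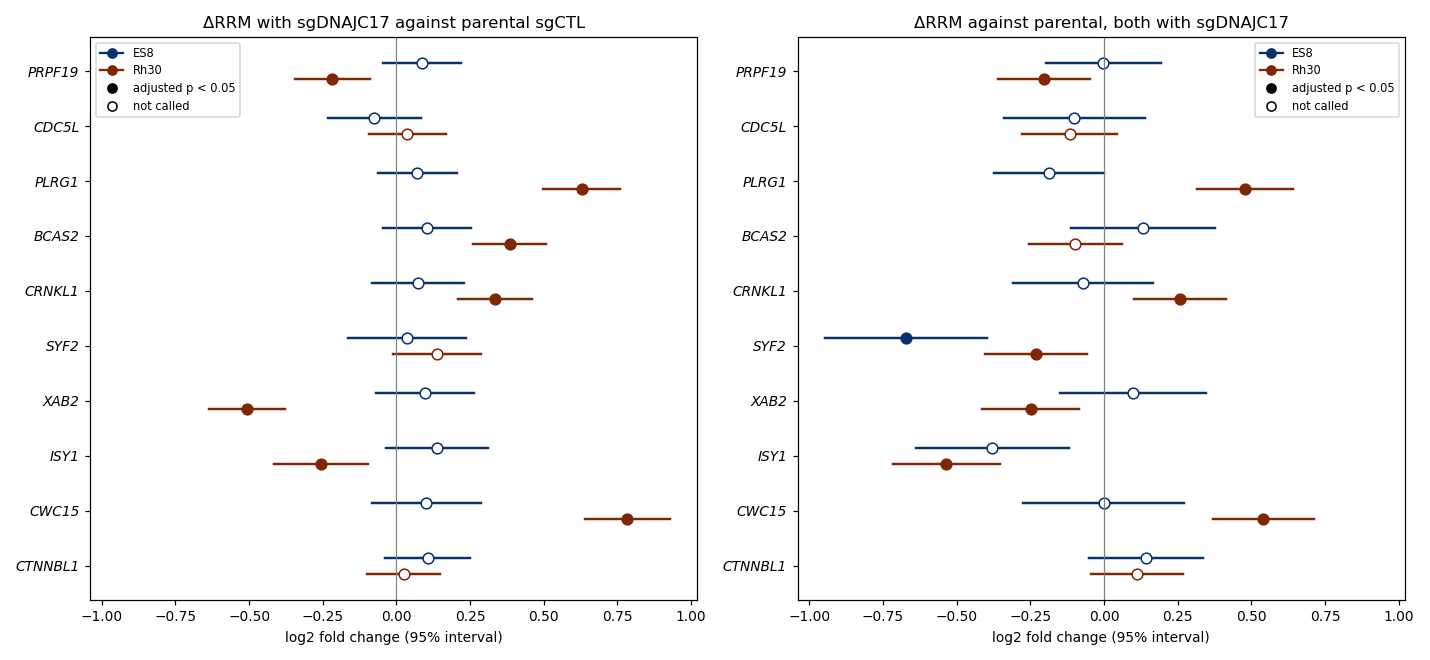
Log2 fold change with 95% intervals of the 10 genes in ΔRRM cells with sgDNAJC17, against parental sgCTL cells (left) and against parental sgDNAJC17 cells (right), in ES8 and Rh30, filled for an adjusted p under 0.05. In ES8 no gene is filled on the left and *SYF2* (-0.67) alone on the right, while in Rh30 7 genes are filled in each panel.

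Between the unperturbed lines, all 10 genes differed, where 87.5% of 17925 genes were called (42.0% higher and 45.5% lower in Rh30), and 9 had groups apart, where 87.7% of genes did. In Rh30 with sgCTL, 7 were higher than in ES8 with sgCTL: *CRNKL1* (3.09-fold), *BCAS2* (1.95-fold), *CTNNBL1* (1.81-fold), *ISY1* (1.63-fold), *PRPF19* (1.41-fold), *SYF2* (1.31-fold) and *CWC15* (1.11-fold). Lower in Rh30 were *PLRG1* (log2 fold change -0.51), *XAB2* (-0.45) and *CDC5L* (-0.27). *CRNKL1* was the single gene past 2-fold, where 50.9% of genes tested were. Its control libraries held 36.2 to 40.3 CPM in ES8 and 118 to 125 CPM in Rh30. The groups of *CWC15* overlapped, and its call was lost with DESeq2 (adjusted p = 0.138) and without any 1 of 4 libraries, ES8 replicates A and B and Rh30 replicates B and C (adjusted p = 0.0668 to 0.149, edgeR). After the correction for GC content and length, *CWC15* was at -0.23 (adjusted p = 0.00013), and *SYF2* lost its call (0.09, adjusted p = 0.167, edgeR). Scaling by library size alone moved the median of all genes by -0.21 in this comparison. *DNAJC17* itself differed by -0.09 (adjusted p = 0.324, edgeR).

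Levels of different genes were set side by side as CPM per kilobase of exonic length. *PRPF19* was the highest of the 10 and *ISY1* the lowest in all 6 groups, with *BCAS2* second. In ES8 with sgCTL, the order was *PRPF19* (110.9 CPM per kilobase), *BCAS2* (49.7), *XAB2* (22.8), *CTNNBL1* (14.9), *PLRG1* (12.3), *CDC5L* (12.04), *CWC15* (9.30), *CRNKL1* (8.43), *SYF2* (5.84) and *ISY1* (3.23). Of neighbours in this order, the libraries of *PLRG1* and *CDC5L* overlapped, as did those of *CWC15* and *CRNKL1*. In ES8 with sgDNAJC17, *SYF2* stood at 9.72 CPM per kilobase, one place higher and with libraries that overlapped those of *CWC15* and *CRNKL1*, and in ES8 ΔRRM cells it stood at 6.01, below *CRNKL1*. Per kilobase of unshared bases, *SYF2* stayed below *CRNKL1* in all 3 ES8 groups. In Rh30 with sgCTL, the order was *PRPF19* (159), *BCAS2* (98.8), *CTNNBL1* (27.5), *CRNKL1* (26.5), *XAB2* (17.0), *CWC15* (10.5), *CDC5L* (10.2), *PLRG1* (8.83), *SYF2* (7.78) and *ISY1* (5.34). There, *CTNNBL1* and *CRNKL1* overlapped, as did *CWC15* and *CDC5L*. In Rh30 ΔRRM cells, *PRPF19* (133) and *BCAS2* (126) came to overlap.

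The files place 912 of the 4102 exonic bases of *ISY1* (22.2%) inside the read-through gene *ISY1-RAB43*, which held at most 4 counts in a library. Reads in those bases may have been left out, so its level per kilobase may be low, and the step down from *SYF2* is smaller per kilobase of unshared bases. *CRNKL1* shares 219 bases (4.80%) with *CFAP61* on the other strand, which held 3 to 25 counts in a library. The other 8 genes share no exonic base with another gene. *XAB2* starts 172 bases from *PET100*, and *CWC15* 69 bases from *KDM4D*. *PET100* was not called in either knockdown (0.21 in ES8, adjusted p = 0.0647, and 0.09 in Rh30, adjusted p = 0.647), and in Rh30 ΔRRM cells it rose by 1.27 (adjusted p = 1.77e-20, edgeR) where *XAB2* fell. *KDM4D* fell in Rh30 ΔRRM cells (-0.54, adjusted p = 0.000151, edgeR) where *CWC15* rose.

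Other genes of the pathway were counted from 4 lists, chosen with earlier results of these data known. Their values were not read with the correction for GC content and length, the block or a library left out. The list of PRP19-related and intron-binding complex genes holds 11 genes. After knockdown, 6 rose and 1 fell in ES8, where 13.6% of all genes tested rose and 13.8% fell. In Rh30, 8 rose and none fell, where 16.1% of all genes tested rose and 16.2% fell. The list's median was 0.24 (log2) for ES8 and 0.31 for Rh30, where the medians of all genes tested were -0.02 and 0.00. *ZNF830*, which with *XAB2*, *ISY1*, *PPIE* and *AQR* codes for the intron-binding complex, rose by 0.69 in ES8 (adjusted p = 0.000584) and 0.60 in Rh30 (adjusted p = 0.000123, edgeR). *BUD31*, which contacts the catalytic RNA, rose by 0.64 (adjusted p = 0.00256) and 0.60 (adjusted p = 0.000154, edgeR). *CCDC12* rose by 0.42 in ES8 and 0.26 in Rh30, and the zinc finger protein gene *RBM22* by 0.41 and 0.49. The helicase gene *AQR* was not called in either line (-0.09 and -0.08). *HSPA8*, the constitutive HSP70 that copurifies with the complex and is a partner of J-domain proteins, went in opposite directions. It fell by 0.30 in ES8 (adjusted p = 0.00149) and rose by 0.42 in Rh30 (adjusted p = 0.00801), a difference of 0.74 (adjusted p = 0.00172, edgeR). The groups of *HSPA8* were apart in ES8 and overlapped in Rh30.

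Of 10 activation and step factors, 4 rose in ES8 and none fell, where 27.4% of all genes were called, 13.6% upward and 13.8% downward. In Rh30, 2 rose and 2 fell, where 32.3% were called, 16.1% upward and 16.2% downward. *YJU2*, which acts at branching, rose by 0.37 in ES8 and 0.30 in Rh30. *SLU7*, a second-step factor, rose by 0.38 in ES8 and was not called in Rh30 (adjusted p = 0.968, edgeR). *DHX38*, the helicase before the second step, rose by 0.27 in ES8 and fell by 0.29 in Rh30, a difference of -0.54 (adjusted p = 0.013, edgeR). *CWC25* rose by 0.28 and *DHX16* fell by 0.26 in Rh30.

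Of 6 genes of the U4/U6 ubiquitin cycle, in which PRPF19 marks PRPF3 and the SART3-bound enzymes USP4 and USP15 remove the mark, 2 rose and 1 fell in ES8, and 3 rose and 1 fell in Rh30, where 27.4% and 32.3% of all genes were called. *PRPF3* had the largest change in these 4 lists, with a rise of 1.25 in ES8 (2.38-fold, adjusted p = 2.75e-05) and of 0.58 in Rh30 (adjusted p = 4.67e-05), and these differed by -0.65 (adjusted p = 0.000531, edgeR). Its partner *PRPF4* rose by 0.36 and 0.42. *USP15* fell by 0.39 in ES8 and *PRPF31* by 0.24 in Rh30, where *USP4* rose by 0.18. Of 8 DNA damage partners, *RPA2* rose in both lines (0.31 and 0.35), *ATR* fell in ES8 (-0.59, adjusted p = 0.00339, edgeR), and no other was called. In ES8 ΔRRM cells no gene of the 4 lists was called against sgCTL. In Rh30 ΔRRM cells, where 33.8% of all genes rose and 35.0% fell, 6 of the PRP19-related genes rose and 1 fell, as did 4 and 5 of the step factors, 3 and 3 of the U4/U6 genes and 3 and 1 of the DNA damage partners.

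**Figure D5:**
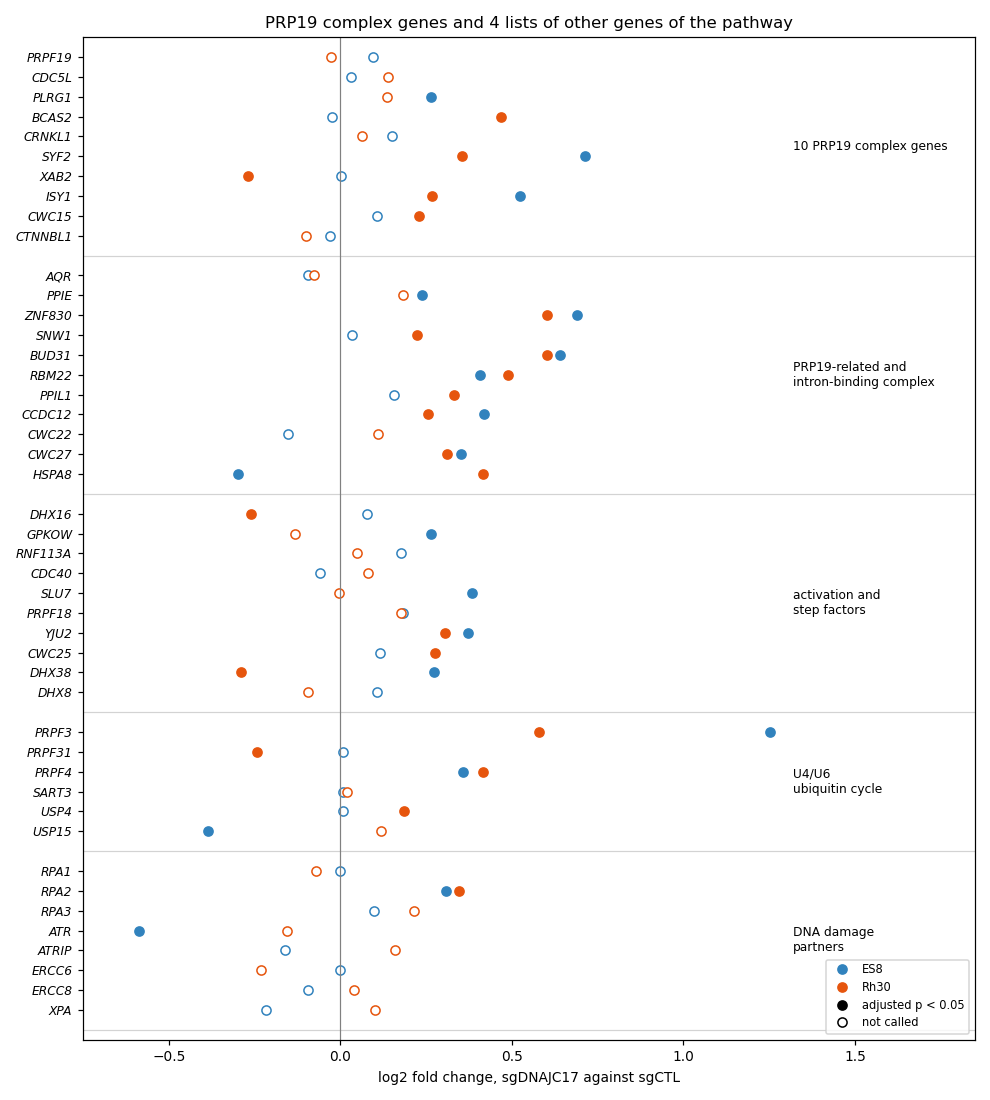
Log2 fold change after knockdown (sgDNAJC17 against sgCTL) of the 10 PRP19 complex genes and of 4 lists of other genes of the pathway, in ES8 (blue) and Rh30 (orange), filled for an adjusted p under 0.05. *PRPF3* lies furthest to the right in ES8 (1.25), and *HSPA8* is filled on opposite sides of 0 (-0.30 and 0.42).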

How the data were processed

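RNA-seq of polyadenylated RNA was analysed from 18 libraries. The authors deposited the raw counts of reads per gene and the exon coordinates, 1 table per library, without normalization. Per the submitters' processing notes, reads were trimmed with Trimmomatic 0.36, aligned with STAR 2.5.2b and counted with featureCounts of Subread 1.5.2. The strand setting and the treatment of reads that overlap 2 genes are not given in the sources used here. The study's text names an older genome build, but 85.3% of 18957 genes started within 1 kb of their GRCh38 position, so positions are GRCh38. Symbols were found for 55082 genes, and 2418 had none.

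Counts were tested with edgeR 4.0.16 (R 4.3.3, limma 3.58.1) over the 6 libraries of each of 7 comparisons, with filterByExpr, TMM scaling, the quasi-likelihood test and Benjamini-Hochberg adjustment over all genes tested. A call is an adjusted p under 0.05. Interactions of line with sgRNA and of line with ΔRRM used 12 libraries each, and the second was added after values had been seen. CPM was scaled over all 18 libraries, so fold changes, taken from each comparison's own fit, can differ slightly from ratios of CPM. Intervals are at 95%.

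Alternatives were DESeq2 1.42.0, its size factors in edgeR, library size alone, no filter on low counts, 1 fit over all 18 libraries, a block for the replicate letter, a correction for GC content and length (lowess, span 0.3), both together, other thresholds, and each library left out in turn. In the Rh30 knockdown, same-letter libraries deviated together over 10387 genes with a mean of at least 5 CPM (correlations of 0.669, 0.368 and 0.417 for A, B and C), so blocked values are given there. Over all genes tested these were 0.202, 0.0718 and 0.097. No other comparison had all 3 above 0.1. Over genes of at least 5 CPM, values below 0 occurred too, as low as -0.608 (A, ES8 ΔRRM against knockdown). Scripts were tested on simulated data.

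Named genes are the 10 members and *DNAJC17* in every comparison, the genes with the largest changes among those that passed in each list (up to 3 in each direction and knockdown), *HSPA8*, genes that share bases or a start with a member, the genes most alike and cell markers. *AQR*, *USP4* and members of lists beside these are named for their place in the complex. The members and lists were chosen with earlier results of these data known. The analysis also used Python 3.11.15, numpy 2.4.6, pandas 2.3.3, scipy 1.17.1 and matplotlib 3.10.9.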

Additional observations from a re-analysis of the deposited data

Results flagged for a closer look

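The response of *BCAS2* to knockdown differed between the lines in the interaction test, by 0.52 (log2, Rh30 minus ES8, edgeR), with a rise in Rh30 in 3 of 3 libraries and overlapping groups in ES8. After the correction for GC content and length it was 0.23, and without Rh30 sgCTL replicate A the call was lost (adjusted p = 0.0915, edgeR). With each library left out, the difference ranged from 0.41 to 0.61. In ES8, sgDNAJC17 replicate A (53.85 CPM) lay below the controls, and replicates B (69.95 CPM) and C (69.53 CPM) lay above them. Without replicate A, the ES8 change of *BCAS2* was 0.086 (adjusted p = 0.111, edgeR).

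Against parental sgCTL cells, the change in ΔRRM cells also differed between the lines for 7 of the 10 genes, where 41.4% of 18854 genes passed, in a test added after the values had been seen. The difference (log2, Rh30 minus ES8) was 0.68 for *CWC15*, 0.56 for *PLRG1*, 0.28 for *BCAS2*, 0.26 for *CRNKL1*, -0.30 for *PRPF19*, -0.39 for *ISY1* and -0.60 for *XAB2*. The calls of *CRNKL1* and *BCAS2* were lost with some single libraries left out, with all 18 libraries in 1 fit and with library size alone. After the correction for GC content and length, *PRPF19* (-0.29), *PLRG1* (0.26) and *XAB2* (-0.21) kept their direction and call, *BCAS2* turned to -0.60, *CRNKL1* (0.02), *ISY1* (-0.23) and *CWC15* (0.16) were no longer called, and *CTNNBL1* (-0.19) was.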

How the results depend on the processing

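Over the 10 genes and 9 fits, without *DNAJC17*, 604 values with a library left out and 619 under other alternatives kept direction and side of the threshold, of 1380 in all. Where a value below turned, the cause was not tested. The share of all genes called was not counted in the alternative fits, so counts of calls from them have no background here.

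The count of genes called ranged, with each library left out, from 2 to 7 in the ES8 knockdown (7 without sgDNAJC17 replicate A), 2 to 6 in the Rh30 knockdown, 7 to 7 and 0 to 0 for ΔRRM against sgCTL in Rh30 and ES8, 1 to 2 and 5 to 7 for ΔRRM against the knockdown in ES8 and Rh30, 9 to 10 between lines, 0 to 2 in the interaction and 5 to 7 in that with ΔRRM. Some values changed sign with a library left out. In the ES8 knockdown, *XAB2* ranged from -0.12 to 0.073, *BCAS2* from -0.089 to 0.086 and *CDC5L* from -0.024 to 0.13. For ΔRRM against sgCTL, *SYF2* ranged from -0.030 to 0.10 in ES8, and in Rh30 *CTNNBL1* from -0.0074 to 0.068 and *CDC5L* from -0.038 to 0.076. Against the ES8 knockdown, *PRPF19* ranged from -0.051 to 0.072 and *CWC15* from -0.12 to 0.078. In the interaction, *CRNKL1* ranged from -0.14 to 0.0042.

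With the replicate block, 8 genes were called in the Rh30 knockdown, no other count of calls changed, *XAB2* turned to -0.0058 in the ES8 knockdown and *CWC15* to 0.0056 for ES8 ΔRRM against knockdown. The letters are not known to pair the libraries in any comparison, the Rh30 knockdown among them. With the GC and length correction, with or without the block, 5 genes were called in the ES8 knockdown, 3 between ES8 ΔRRM and knockdown, and 4 in the interaction. *CRNKL1* turned to -0.026 in the Rh30 knockdown and *SYF2* to -0.0069 (-0.0074 with the block) in ES8 ΔRRM. In Rh30 ΔRRM against sgCTL, *CDC5L* was at -0.13, *BCAS2* at -0.56, *SYF2* at -0.055 (-0.057 with the block) and *CTNNBL1* at -0.065 (-0.067). *CWC15* was at -0.23 between lines. *CDC5L* was at -0.048 and *CWC15* at -0.058 (-0.056) in the interaction, and *CDC5L* at -0.13, *BCAS2* at -0.60 and *SYF2* at -0.10 in that with ΔRRM.

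With library size alone, 3 genes were called in the Rh30 knockdown, and *CDC5L* (-0.013) and *XAB2* (-0.047) turned in that of ES8. *CDC5L* (-0.20), *SYF2* (-0.10) and *CTNNBL1* (-0.21) turned for Rh30 ΔRRM, *CTNNBL1* (-0.051) against the knockdown, *PRPF19* (0.019) and *CWC15* (0.014) for ES8 ΔRRM against knockdown, *CWC15* (-0.068) between lines, and *CDC5L* (-0.10) and *SYF2* (-0.11) in the interaction with ΔRRM. With all 18 libraries in a single fit, *CDC5L* (-0.00092) and *CTNNBL1* (-0.013) turned for Rh30 ΔRRM. For ES8 ΔRRM against knockdown, 2 genes were called with DESeq2, its size factors or no filter and 3 with all libraries.

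At an adjusted p under 0.01, 2 genes were called in the Rh30 knockdown and 0 in the interaction. With a 2-fold requirement, 0 were called in any comparison but that between lines, where 1 was. Per kilobase of unshared bases, the level of *PRPF19* was 26.7, 19.9 and 25.8 times that of *ISY1* in ES8 (sgCTL, sgDNAJC17, ΔRRM) and 23.2, 18.9 and 23.8 times in Rh30.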

Other observations

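The 10 genes did not move as 1 group. With each line centred on its own mean, Pearson's r between pairs of them over the 18 libraries ranged from -0.846 to 0.884 with a mean of 0.0701, and 27 of the 45 pairs were above 0. Points share libraries and depth, and no test was made.

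Among 11170 other genes with a mean of at least 5 CPM, those whose centred profile over 18 libraries was most like the mean profile of the 10 were *MT-ND3* (r = 0.931), *SMNDC1* (0.928), *TERF2* (0.928), *MAP1LC3B* (0.898) and *PPP2CA* (0.898).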
